A study of Danio rerio with 18 samples.

Results

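The effect of incubation temperature among LPS-exposed larvae was measured in 6 of the 18 RNA-seq libraries of the series, which are the 3 libraries of larvae incubated at 32 °C and the 3 of larvae incubated at 24 °C, all challenged with LPS at 24 °C. The members were chosen by their sample labels alone. All were whole zebrafish larvae of the AB strain, raised to the first-feeding stage and sampled after 24 h in water with lipopolysaccharide (LPS) of Pseudomonas aeruginosa, an endotoxin shed by Gram-negative bacteria. The labels give 10 mg/L LPS, whereas the methods of the study give the same figure in a smaller unit, in micrograms. The 32 × 24 °C LPS larvae grew at 32 °C until first feeding, were cooled to 24 °C over some hours and were then challenged, and the 24 × 24 °C LPS larvae stayed at 24 °C throughout. The 6 control libraries of the same temperatures, 32 × 24 °C control and 24 × 24 °C control larvae with a buffer in place of LPS, carry the same contrast without LPS and share no library with it. The last 6 libraries, kept at 24 °C before a challenge at the higher temperature, entered only the gene filter, the scaling and the estimate of the spread. The fish stock was kept under a cycle of equal day and night, and no larva was fed. The light regime of the embryos and larvae is not stated.

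Each library is a pool of larvae that survived the challenge, and the share of survivors differed between the incubation temperatures. Embryos at 32 °C reach first feeding sooner, so the 32 × 24 °C larvae were sampled at the same stage but fewer hours after fertilization. The clock time of sampling is not stated. Eggs were collected in the morning, and counted from the ages at first feeding, the larvae of the higher incubation temperature were sampled some hours earlier in the day. Incubation temperature, the cooling before the challenge, age, hour of day and survival therefore cannot be told apart in this comparison. In whole larvae, fewer cells of a type and less RNA per cell cannot be told apart either.

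Zebrafish larvae rely on innate immunity, in which myeloid cells and epithelia answer LPS with cytokines such as il1b and with matrix metallopeptidases. Nearly all larval tissues also hold a circadian clock. In it, CLOCK and BMAL proteins switch on period and cryptochrome genes, whose products repress CLOCK and BMAL in turn, while a further loop of NR1D repressors and ROR activators sets the transcription of BMAL genes. The clock is entrained by light and temperature cycles, and it drives output genes through E-box and D-box elements.

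The total count was 2297231, 2471792 and 2259161 in replicates 1, 2 and 3 of the 32 × 24 °C LPS larvae, against 6679159, 5689632 and 2088918 in those of the 24 × 24 °C LPS larvae. The ranges overlapped (exact two-sided permutation test, p = 0.4, with 0.1 the smallest p possible), and genes with few counts were measured more precisely in 24 × 24 °C replicates 1 and 2. Replicate 1 of the 32 × 24 °C LPS larvae stood apart from its group in digestive organs. The summed level of 24 genes of the exocrine pancreas was 261 CPM (counts scaled to a common library size) there, against 2728 and 1748 in replicates 2 and 3, and 1379 to 2653 in the 24 × 24 °C LPS larvae. Replicate 1 of the 32 × 24 °C control larvae was low in the same genes, with 319 CPM against 1432 and 1779 in its group. The common biological coefficient of variation was 0.228 within the 32 × 24 °C LPS larvae and 0.129 within the 24 × 24 °C LPS larvae. Of 12 markers of larval tissues matched in the table, 11 had counts in all 6 libraries, among them fabp10a of hepatocytes, krt4 of the periderm and lyz of neutrophils, and the globin gene hbae1.1 had 0 to 1 counts.

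Of 15722 genes tested, 40 were DEGs (26 up-/14 down-regulated in 32 × 24 °C relative to 24 × 24 °C LPS larvae), which is 0.254% of the genes tested, with 0.165% up and 0.089% down. A DEG had an edgeR quasi-likelihood p under 0.05 after Benjamini-Hochberg adjustment over all genes tested and a fold change of at least 1.5. Circadian clock genes led both directions: nr1d1, per1a and ciarta had the largest called rises among genes with an assigned name, and rorcb had the largest fall. The AP-1 subunit gene junba, the cone kinase gene grk7a, the muscle gene pvalb3 and the matrix gene POSTN were also among the DEGs, and each was the 1 DEG of its list. The 2 groups did not overlap in any of the 40 DEGs, beside 16.2% of all genes tested without overlap, 8.09% higher and 8.09% lower. The calling itself favours genes without overlap, so this adds no support to the calls. At an unadjusted p under 0.05, 1438 genes differed (9.15%), of which 770 were higher (4.9%) and 668 lower (4.25%) in the 32 × 24 °C LPS larvae.

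These calls rested on thin margins, with adjusted p-values of 0.00187 to 0.0495. Without 24 × 24 °C LPS replicate 2 there was no DEG, and a single one was called when replicate 3 of either LPS group was dropped. All 40 log2 fold changes kept their sign without each of the 6 libraries in turn. Groups without overlap made that nearly certain beforehand, so it is no sign of stability. There were 25 DEGs without 32 × 24 °C LPS replicate 2, 23 without 24 × 24 °C LPS replicate 1 and 45 without 32 × 24 °C LPS replicate 1, the library low in digestive genes. Libraries outside the LPS comparison moved the count too: it was 81 and 22 without replicates 1 and 2 of the 32 × 24 °C control larvae, 23 and 21 without those of the 24 × 24 °C control larvae, and 24 without replicate 2 of the controls challenged at the higher temperature. Fitted on the 6 libraries alone, edgeR called 5 DEGs and DESeq2 79, and on all 18 libraries DESeq2 called 114, 37 of them among the 40. With both 32 × 24 °C libraries numbered 1 left out, a choice made after seeing the data, 157 genes were called (104 up-/53 down-regulated).

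**Figure D1:**
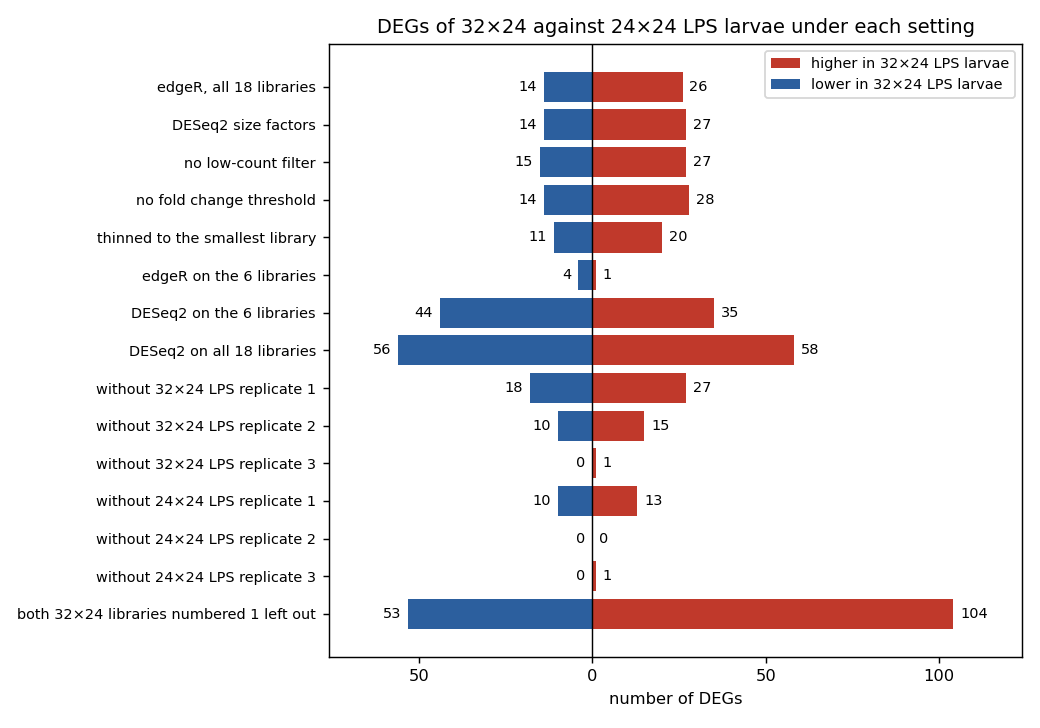
Number of DEGs of the 32 × 24 °C against the 24 × 24 °C LPS larvae (horizontal axis) under a part of the settings of the test (rows), with genes higher in the 32 × 24 °C larvae to the right and lower ones to the left. Fits with a replicate block and those without 1 library outside the LPS comparison are not drawn. The count is 40 with edgeR on all 18 libraries, 1 without replicate 3 of either LPS group and 0 without 24 × 24 °C LPS replicate 2.

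Clock genes made up 10 of the 40 DEGs. Of 37 clock genes tested, 8 rose and 2 fell in the 32 × 24 °C LPS larvae, which is 27% of the list against 0.254% of all genes tested. The list was written with earlier results of these data known, so its count is a description. At an unadjusted p under 0.05, 16 of the 37 were higher and 8 lower, beside 4.9% and 4.25% of all genes tested. The median log2 fold change was 0.16, against 0.01 over all genes tested. That median was 0.07 without 32 × 24 °C LPS replicate 2 and 0.34 without 32 × 24 °C LPS replicate 1. With 1 LPS library left out, 0 to 13 clock genes were called: 0 without 24 × 24 °C LPS replicate 2, 1 without 24 × 24 °C LPS replicate 3 and 6 without 24 × 24 °C LPS replicate 1. DESeq2 on all 18 libraries called 16.

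The NR1D repressor genes nr1d1 and NR1D2 rose. For nr1d1, which encodes the Rev-erb alpha repressor of BMAL transcription, the level was 71.3, 133 and 126 CPM in the 32 × 24 °C LPS larvae, against 23.7, 12.2 and 8.73 CPM in the 24 × 24 °C LPS larvae. All 3 pools of the 32 × 24 °C larvae were above all 3 of the 24 × 24 °C larvae, and the log2 fold change was 2.79 (standard error 0.40, edgeR adjusted p = 0.014). NR1D2, a copy of the related Rev-erb beta gene, had 183, 246 and 193 CPM in the 32 × 24 °C LPS larvae, against 126, 115 and 136 CPM in the 24 × 24 °C LPS larvae (log2 fold change 0.73, standard error 0.14, edgeR adjusted p = 0.0246). Capital letters mark genes for which the gene table gives the name of the human counterpart, of which zebrafish may hold several copies. The second copy of this gene, nr1d2a, overlapped between the groups, with 113, 164 and 105 CPM against 104, 109 and 106 CPM. A further family member, nr1d4b, was lower in the 32 × 24 °C LPS larvae without overlap and not called. It had few counts, with 1.29, 2.22 and 1.7 CPM against 2.4, 2.4 and 4.62 CPM (log2 fold change -0.69, edgeR adjusted p = 0.778).

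The period genes encode the classical repressors of CLOCK and BMAL. For per1a, the level was 21.5, 33.3 and 13.6 CPM in the 32 × 24 °C LPS larvae, against 5.37, 4.11 and 6.16 CPM in the 24 × 24 °C LPS larvae. This was the lowest adjusted p of all genes (log2 fold change 2.18, standard error 0.28, edgeR adjusted p = 0.00187), and per1a was the gene still called without 5 of the 6 libraries in turn. Its paralog per1b had 89.4, 136 and 122 CPM in the 32 × 24 °C LPS larvae, against 56.8, 37.5 and 38.5 CPM in the 24 × 24 °C LPS larvae (log2 fold change 1.37, standard error 0.25, edgeR adjusted p = 0.0246). For the light-inducible per2, the level was 126, 125 and 152 CPM, against 83.8, 64.9 and 68.3 CPM in the 24 × 24 °C LPS larvae (log2 fold change 0.89, standard error 0.18, edgeR adjusted p = 0.044). These groups did not overlap for any of the 3 genes. The level of per3 overlapped, with 77.3, 107 and 67.6 CPM against 53.3, 39.0 and 75 CPM, and it was not called (edgeR adjusted p = 0.305).

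Further clock genes rose. The level of ciarta, a circadian repressor of CLOCK and BMAL activity, was 109, 144 and 129 CPM in the 32 × 24 °C LPS larvae, against 52.6, 32.5 and 35.4 CPM in the 24 × 24 °C LPS larvae (log2 fold change 1.65, standard error 0.24, edgeR adjusted p = 0.0114). It was called in all 8 other settings of scaling, filter, model, replicate block, depth or restriction to the libraries compared, as was pde6ha. With each of the 6 LPS libraries left out in turn, both were called in only 3 cases. Their edgeR adjusted p-values reached 0.129 for ciarta and 0.0919 for pde6ha. The gene nr1d1 was called in 6 of the 8 settings and likewise in 3 of the 6 cases. For bhlhe41, a helix-loop-helix repressor that binds E-boxes, the level was 35.2, 62.6 and 56.5 CPM, against 25, 20.4 and 20.0 CPM in the 24 × 24 °C LPS larvae (log2 fold change 1.22, standard error 0.23, edgeR adjusted p = 0.0253). The D-box activator gene tefa had 234, 263 and 245 CPM in the 32 × 24 °C LPS larvae, against 156, 148 and 163 CPM (log2 fold change 0.67, standard error 0.14, edgeR adjusted p = 0.0444). Again no pool of either group lay within the range of the other.

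The 2 clock genes that fell were rorcb and cry3b. ROR proteins activate BMAL genes through the element that NR1D proteins also bind. The level of rorcb was 21.9, 18.2 and 9.35 CPM in the 32 × 24 °C LPS larvae, against 38.4, 54.8 and 63.2 CPM in the 24 × 24 °C LPS larvae (log2 fold change -1.63, standard error 0.28, edgeR adjusted p = 0.0242). For cry3b, of the cryptochrome family, it was 54.6, 18.9 and 23.0 CPM, against 74.6, 101 and 101 CPM in the 24 × 24 °C LPS larvae (log2 fold change -1.52, standard error 0.30, edgeR adjusted p = 0.0489). The gap was narrowest at replicate 1 of both groups, and cry3b was called in 3 of the 8 other settings.

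The remaining clock genes were not called, and their values lay on both sides of 0. The BMAL copies had log2 fold changes of -0.52 (ENSDARG00000006791), -0.97 (ENSDARG00000035732) and -0.98 (bmal2), and those of the D-box repressor genes nfil3-5 and nfil3-2 were -1.11 and -1.35 (edgeR adjusted p = 0.104 and 0.105). The D-box activator gene dbpb lay just past the threshold at 1.25 (standard error 0.26, edgeR adjusted p = 0.0518), with 25.3, 58.5 and 31.0 CPM in the 32 × 24 °C LPS larvae, against 18.5, 12.5 and 18.5 CPM. Positive values were also found for cry2 (1.39), ciartb (1.78), cry5 (0.82) and the 2 CRY1 copies (0.77 and 0.41). Of these genes, all but bmal2 were without overlap between the groups, but they were picked after their values were seen. Among all 37 clock genes tested, 15 were higher and 9 lower without overlap, beside 8.09% and 8.09% of all genes tested. Those counts include the called clock genes. Within families the signs were mixed, as cry3a of the cryptochromes had -0.92, nfil3 of the D-box repressors 0.16 and hlfa of the D-box activators -0.16. The ROR gene rorca had -0.95 and the D-box activator gene dbpa 0.77, both without overlap between the groups. Levels of CLOCK, RORA, rorab, csnk1da, bhlhe40, aanat2, tefb and nfil3-6 overlapped between the groups.

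**Figure D2:**
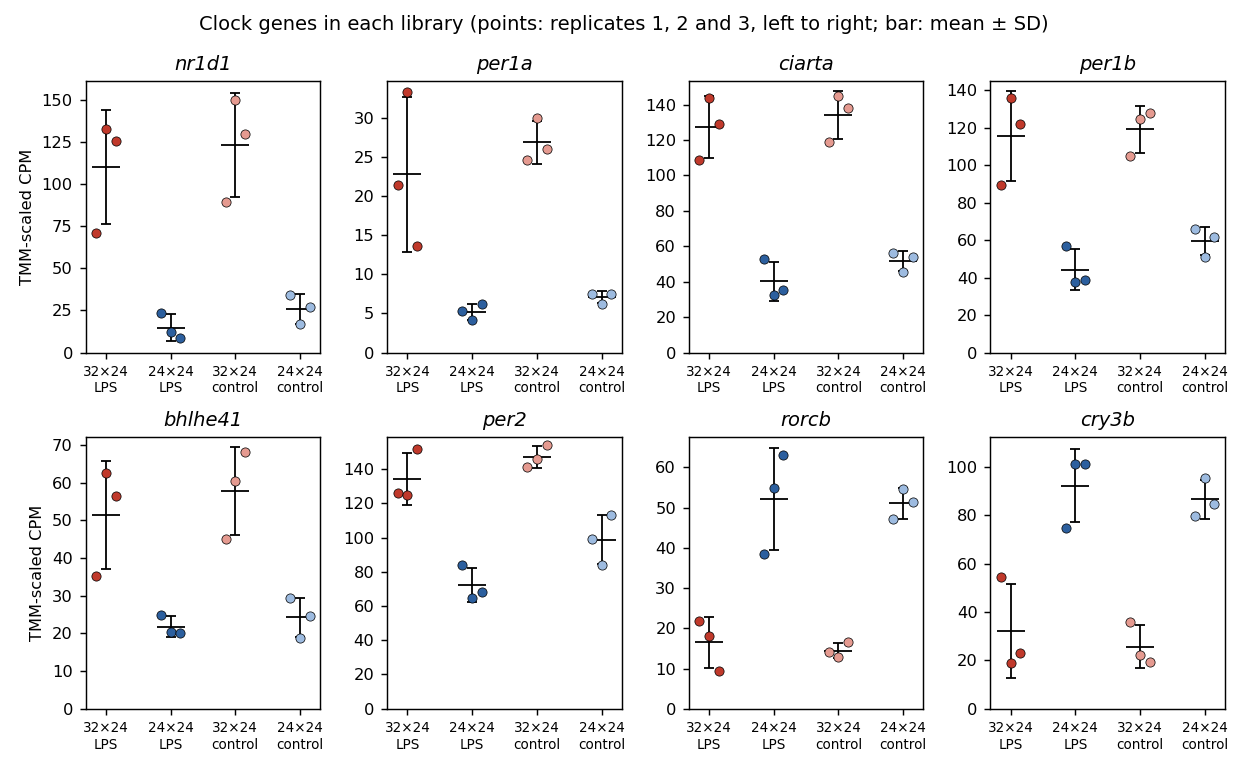
TMM-scaled CPM of 8 called clock genes (panels, linear axes from 0) in each library of the 32 × 24 °C LPS, 24 × 24 °C LPS, 32 × 24 °C control and 24 × 24 °C control larvae. Points are the 3 libraries of a group and bars the mean ± SD. In all 8 panels, the 3 pools of the 32 × 24 °C LPS larvae lie outside the range of the 24 × 24 °C LPS larvae, and nr1d1 averages 110 CPM against 14.9 CPM.

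Genes of the eye and brain rose and fell, and of these DEGs only grk7a and sv2ba belong to a list. The level of grk7a, which encodes the kinase that quenches cone opsins, was 134, 180 and 204 CPM in the 32 × 24 °C LPS larvae, against 84.0, 81.3 and 82.7 CPM in the 24 × 24 °C LPS larvae (log2 fold change 1.06, standard error 0.17, edgeR adjusted p = 0.014). For impg2b, a proteoglycan of the matrix around photoreceptors, it was 12.0, 10.4 and 12.3 CPM, against 5.51, 3.60 and 3.08 CPM (log2 fold change 1.42, standard error 0.26, edgeR adjusted p = 0.0246). Conversely, pde6ha, the inhibitory subunit of the cone phosphodiesterase, had 354, 275 and 280 CPM in the 32 × 24 °C LPS larvae, against 555, 695 and 784 CPM in the 24 × 24 °C LPS larvae (log2 fold change -1.16, standard error 0.17, edgeR adjusted p = 0.00768). Photoreceptor genes rose and fell in the same pools, and the groups overlapped in none of these 3.

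The opsin gene opn6b was low in all 6 libraries, with 3.44, 4.45 and 3.83 CPM in the 32 × 24 °C LPS larvae, against 9.19, 12.8 and 14.4 CPM in the 24 × 24 °C LPS larvae, and it fell (log2 fold change -1.58, standard error 0.31, edgeR adjusted p = 0.0324). It was lower in every 32 × 24 °C pool. The synaptic vesicle glycoprotein gene sv2ba rose, with 72.6, 70.4 and 71.4 CPM against 44.9, 38.7 and 40.1 CPM (edgeR adjusted p = 0.0246), and epd, the ependymin of the fluid around the brain, fell, with 78.2, 79.7 and 80.8 CPM against 146, 140 and 134 CPM (edgeR adjusted p = 0.0246). Of 52 mature neuron and synapse genes tested, sv2ba was the 1 DEG, 16 had positive and 36 negative values, and the median was -0.12.

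Of the 73 phototransduction genes tested, a list that does not hold impg2b, pde6ha or opn6b, grk7a was the 1 DEG. At an unadjusted p under 0.05, 13 were higher and 4 lower, beside 4.9% and 4.25% of all genes. The median log2 fold change was 0.05, against 0.01 over all genes. The cone arrestin gene arr3b had 370, 323 and 352 CPM in the 32 × 24 °C LPS larvae, against 220, 227 and 225 CPM, without overlap, and missed the threshold (log2 fold change 0.63, edgeR adjusted p = 0.0518). In the lens list, 44 of 49 crystallin and lens genes had negative values (median -0.37), with 8 lower and 1 higher at an unadjusted p under 0.05, beside 4.25% and 4.9% of all genes, and no DEG. The lens median was -0.70 without 32 × 24 °C LPS replicate 1, where 4 lens genes were called, -0.19 and -0.22 without replicates 2 and 3 of that group, and -0.25 without 24 × 24 °C LPS replicate 3. With both 32 × 24 °C libraries numbered 1 left out, 13 lens genes were called. Their summed level overlapped, at 13070 to 25409 CPM in the 32 × 24 °C LPS larvae against 20969 to 26982 CPM in the 24 × 24 °C LPS larvae.

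DEGs of muscle rose as well. The muscle calcium buffer gene pvalb3 had 24.1, 17.8 and 22.5 CPM in the 32 × 24 °C LPS larvae, against 7.49, 9.93 and 9.76 CPM in the 24 × 24 °C LPS larvae (log2 fold change 1.26, standard error 0.24, edgeR adjusted p = 0.0246). For ankrd1b, a paralog of an ankyrin repeat gene that responds to load in muscle, the level was 97.9, 74.8 and 96.9 CPM, against 50.2, 42.0 and 38.5 CPM (log2 fold change 1.03, standard error 0.19, edgeR adjusted p = 0.0246). The caveola gene cavin4b of muscle had 136, 125 and 130 CPM, against 90.3, 87.8 and 80.6 CPM (log2 fold change 0.59, edgeR adjusted p = 0.0489), just over the threshold of 1.5-fold at 1.51-fold. The muscle list as a whole was level, with 30 of 66 members positive, 1 DEG and a median of -0.02. Among members not called, the fast myosin gene myhz1.3 had 1883, 1145 and 1582 CPM against 2089, 2716 and 3157 CPM (edgeR adjusted p = 0.0602).

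In the extracellular matrix, POSTN, a copy of the periostin gene, and col4a5, a chain of basement membrane collagen that was not in the list, rose. The level of POSTN was 598, 502 and 639 CPM in the 32 × 24 °C LPS larvae, against 426, 361 and 331 CPM (log2 fold change 0.64, standard error 0.13, edgeR adjusted p = 0.0489). For col4a5 it was 247, 213 and 235 CPM, against 159, 125 and 106 CPM (log2 fold change 0.82, standard error 0.16, edgeR adjusted p = 0.0253). Of 55 genes of the collagen and matrix list, 47 had positive values and 28 were higher at an unadjusted p under 0.05, with none lower, beside 4.9% of all genes tested. The median was 0.38 and stayed between 0.36 and 0.44 without each LPS library. The summed level of the list was 13415 to 14729 CPM in the 32 × 24 °C LPS larvae, above the 10197 to 11238 CPM of the 24 × 24 °C LPS larvae. Type I collagen genes are examples of members that were not called: col1a2 had 1231, 983 and 1281 CPM against 882, 795 and 707 CPM (log2 fold change 0.55, standard error 0.15, edgeR adjusted p = 0.14). In the control larvae the median of the list was 0.20, and the summed levels overlapped, at 13869 to 17267 CPM in 32 × 24 °C control and 14133 to 14271 CPM in 24 × 24 °C control larvae.

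Of the other DEGs that rose, pmp22b encodes a protein of peripheral myelin (168, 138 and 151 CPM against 78.0, 108 and 92.4 CPM, edgeR adjusted p = 0.0246) and hsf2 a heat shock transcription factor (53.7, 70.4 and 46.3 CPM against 32.5, 32.2 and 27.2 CPM, edgeR adjusted p = 0.0356). Of 29 myelin and glia genes tested, pmp22b was the 1 DEG, 11 had positive and 18 negative values, and the median was -0.05. The myelin gene mpz was lower without overlap and not called, with 30.5, 17.8 and 14.5 CPM against 45.8, 32.9 and 37 CPM (edgeR adjusted p = 0.104). KAZALD1, of the insulin-like growth factor binding protein superfamily, had 24.5, 12.2 and 18.3 CPM in the 32 × 24 °C LPS larvae, against 6.93, 6.34 and 5.14 CPM (log2 fold change 1.52, edgeR adjusted p = 0.0242). The small GTPase gene rhogd, the amino acid transporter gene slc43a1b, the deubiquitinase gene usp21, tmem41ab and ubtd1a rose with log2 fold changes of 1.04 to 1.45 (edgeR adjusted p = 0.0356 to 0.0489), and so did 2 genes with placeholder names only, si:ch211-180m24.1 at 2.12 and si:ch211-114n24.6 at 0.76. Among the heat and cold genes, hsf2 was the 1 DEG of 36, and 29 had positive values. The RNA-binding gene cirbpb, cold-inducible in mammals, passed the p threshold but not the fold, with 2202, 2466 and 2445 CPM in the 32 × 24 °C LPS larvae, against 1582, 1617 and 1633 CPM (1.47-fold, edgeR adjusted p = 0.0394). The inducible chaperone gene hsp70l overlapped between the groups, with 6.01, 13.3 and 23.4 CPM against 7.49, 3.77 and 10.8 CPM.

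Other genes that fell had varied roles. The level of tsc22d3, a glucocorticoid-induced gene in mammals, was 84.6, 89.3 and 81.6 CPM, against 139, 151 and 164 CPM (log2 fold change -0.82, standard error 0.17, edgeR adjusted p = 0.0489). For psme4a, an activator of the proteasome core, it was 18.0, 21.1 and 11.1 CPM, against 44.1, 49.7 and 47.2 CPM (log2 fold change -1.48, standard error 0.30, edgeR adjusted p = 0.0489). The groups did not overlap in either gene. The glutathione cycle gene ggctb, creg2, ppdpfb and them6 fell too, with log2 fold changes of -0.63 to -1.15 (edgeR adjusted p = 0.0246 to 0.0495).

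Most inflammatory genes had lower values in the 32 × 24 °C LPS larvae, with 1 call. Of 55 genes of inflammatory signalling tested, 51 had negative values, and the median was -0.41, against 0.01 over all genes. At an unadjusted p under 0.05, 13 were lower and 1 higher, beside 4.25% and 4.9% of all genes. The called member was junba, an AP-1 subunit gene, with 24.1, 40 and 29.3 CPM in the 32 × 24 °C LPS larvae, against 61.6, 83.6 and 53.9 CPM in the 24 × 24 °C LPS larvae (log2 fold change -1.10, standard error 0.22, edgeR adjusted p = 0.0444). The list was written with genes that the study picked on these samples known, so its direction is no independent evidence. Without each LPS library in turn, junba stayed called only without 32 × 24 °C LPS replicate 2, with edgeR adjusted p-values of 0.0742 to 0.241 in the other 5 cases. The median of the list was -0.67 to -0.26 without each LPS library in turn.

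Other inflammatory genes were not called by edgeR on all 18 libraries. For il1b, the interleukin-1 beta gene, the level was 16.8, 12.6 and 5.95 CPM in the 32 × 24 °C LPS larvae, against 34.6, 39.2 and 28.2 CPM in the 24 × 24 °C LPS larvae, without overlap (log2 fold change -1.55, standard error 0.53, edgeR adjusted p = 0.344). The matrix metallopeptidase gene mmp9 had 46, 102 and 79.9 CPM, against 118, 237 and 233 CPM (log2 fold change -1.35, standard error 0.45, edgeR adjusted p = 0.33). DESeq2 on the 6 libraries alone called both, with adjusted p = 0.000911 for il1b and 0.00182 for mmp9, whereas DESeq2 on all 18 did not (adjusted p = 0.221 for each). Without replicate 3 of the LPS larvae challenged at the higher temperature, which is outside the comparison, edgeR called il1b too (adjusted p = 0.0494). The AP-1 gene fosl1a (9.02, 31.5 and 18.3 CPM against 44.5, 63.5 and 37.5 CPM), the transcription factor gene cebpb (42.1, 91.1 and 59.9 CPM against 135, 172 and 123 CPM) and the chemokine gene cxcl8b.1 (8.16, 22.6 and 9.35 CPM against 27.6, 30.5 and 25.2 CPM) did not overlap between the groups. Their edgeR adjusted p-values were 0.256 to 0.477. DESeq2 on the 6 libraries called fosl1a (adjusted p = 0.0252) and cebpb (0.00232).

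Further genes that the study names for LPS overlapped between the groups. These were cxcl8a, ptgs2b, the prostaglandin synthase gene, mmp13a, anxa2a, s100a10b, lye, lyz, muc5.1 and muc5.2, with log2 fold changes of -0.79 to 0.34 (edgeR adjusted p = 0.613 to 0.975). The level of ptgs2b was 17.2, 53.7 and 28.5 CPM in the 32 × 24 °C LPS larvae, against 51.7, 78.9 and 40.1 CPM. Replicate 1 was the lowest of the 32 × 24 °C LPS larvae for junba, ptgs2b, mmp9, mmp13a, fosl1a, cebpb, cxcl8b.1 and anxa2a, and not for il1b or cxcl8a. The summed level of the 55 inflammatory genes overlapped, at 1785 to 3077 CPM against 3003 to 3846 CPM. Replicate 1 was the lowest there too. Of 12 neutrophil genes, 10 had negative values and none was called, and the summed level overlapped, at 94.4 to 222 CPM against 182 to 250 CPM. For the 20 macrophage genes the summed level was 959 to 2246 CPM against 1484 to 1816 CPM. The part of leukocyte number in the inflammatory values was not tested.

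**Figure D3:**
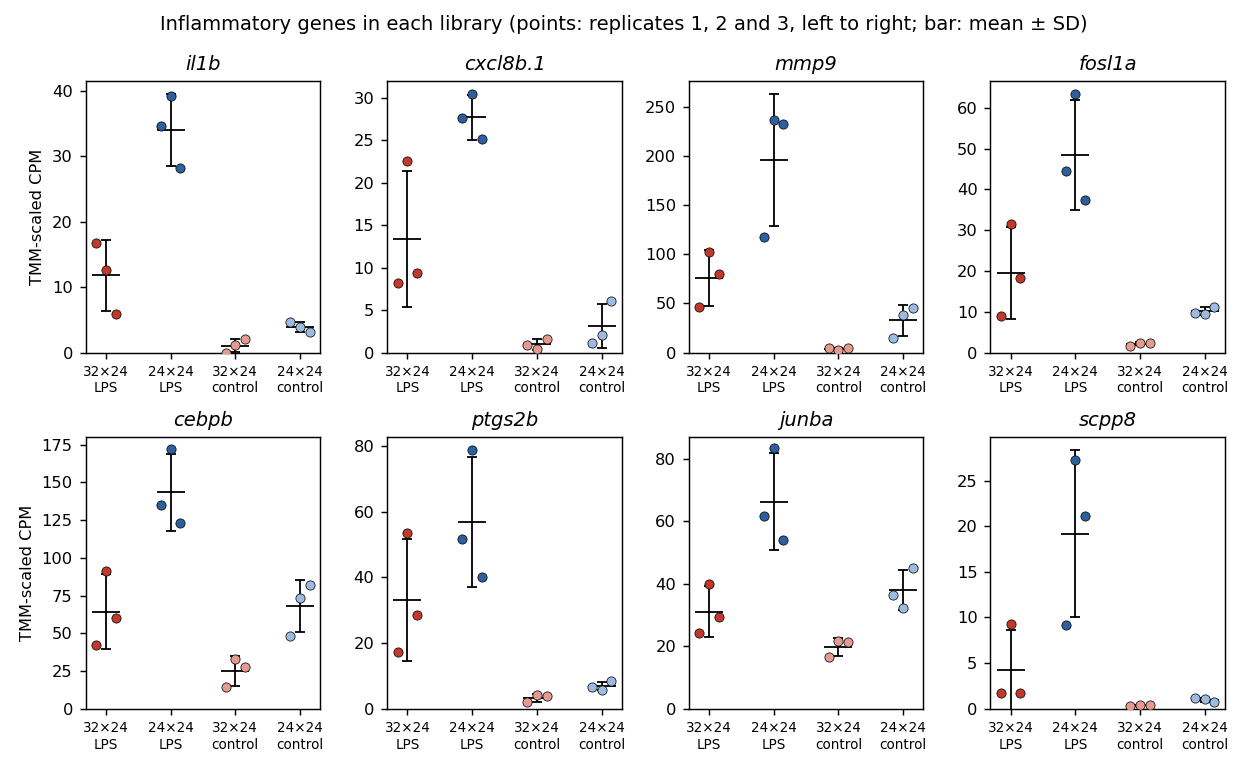
TMM-scaled CPM of 8 inflammatory genes (panels, linear axes from 0) in each library of the 32 × 24 °C LPS, 24 × 24 °C LPS, 32 × 24 °C control and 24 × 24 °C control larvae. Points are the 3 libraries of a group and bars the mean ± SD, and of the 8 genes only junba was called. The LPS groups overlap for ptgs2b and scpp8, and not for il1b, where the 32 × 24 °C LPS larvae reach 16.8 CPM and the 24 × 24 °C LPS larvae start at 28.2 CPM.

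Digestive organ lists depended on single libraries. The median over 52 liver genes was 0.31 with all libraries and -0.26 to 0.70 without each LPS library in turn, and over 48 enterocyte genes it was 0.13 and -0.31 to 0.62. Over 24 genes of the exocrine pancreas the median was -0.33 and -1.05 to 0.03. None of these lists held a DEG. The elastase gene ela3l shows the spread, with 10.7, 110 and 84.2 CPM in the 32 × 24 °C LPS larvae, against 85.1, 180 and 183 CPM in the 24 × 24 °C LPS larvae. The pancreas level in the 32 × 24 °C larvae was lowest in the libraries numbered 1, with and without LPS.

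Several other lists held no DEG. Beside them, 8168 of the 15722 genes tested had positive and 7554 negative values. Of 90 DNA replication and cell cycle genes, 76 had positive values (median 0.23), and cdc20, which drives exit from mitosis, had 16.8, 11.1 and 16.6 CPM in the 32 × 24 °C LPS larvae, against 9.05, 7.19 and 5.14 CPM (edgeR adjusted p = 0.129). Of 40 proteasome subunit genes, 37 were positive (median 0.21), with 9 higher and 0 lower at an unadjusted p under 0.05, beside 4.9% and 4.25% of all genes. Of 90 ribosomal protein genes, 76 were negative (median -0.13), with 17 lower and 0 higher at that p. The hypoxia-inducible gene ndrg1b had 35.7, 41.1 and 26.8 CPM in the 32 × 24 °C LPS larvae, against 100, 111 and 130 CPM, which did not overlap but missed the threshold (log2 fold change -1.71, standard error 0.37, edgeR adjusted p = 0.0845), and 30 of the 43 genes of its list were negative. Of 29 pigment cell genes, 18 were positive and 11 negative (median 0.12). Among them, oca2, a transporter of melanosomes, had 15.9, 15.2 and 23.0 CPM, against 8.76, 7.36 and 7.19 CPM (edgeR adjusted p = 0.062).

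**Figure D4:**
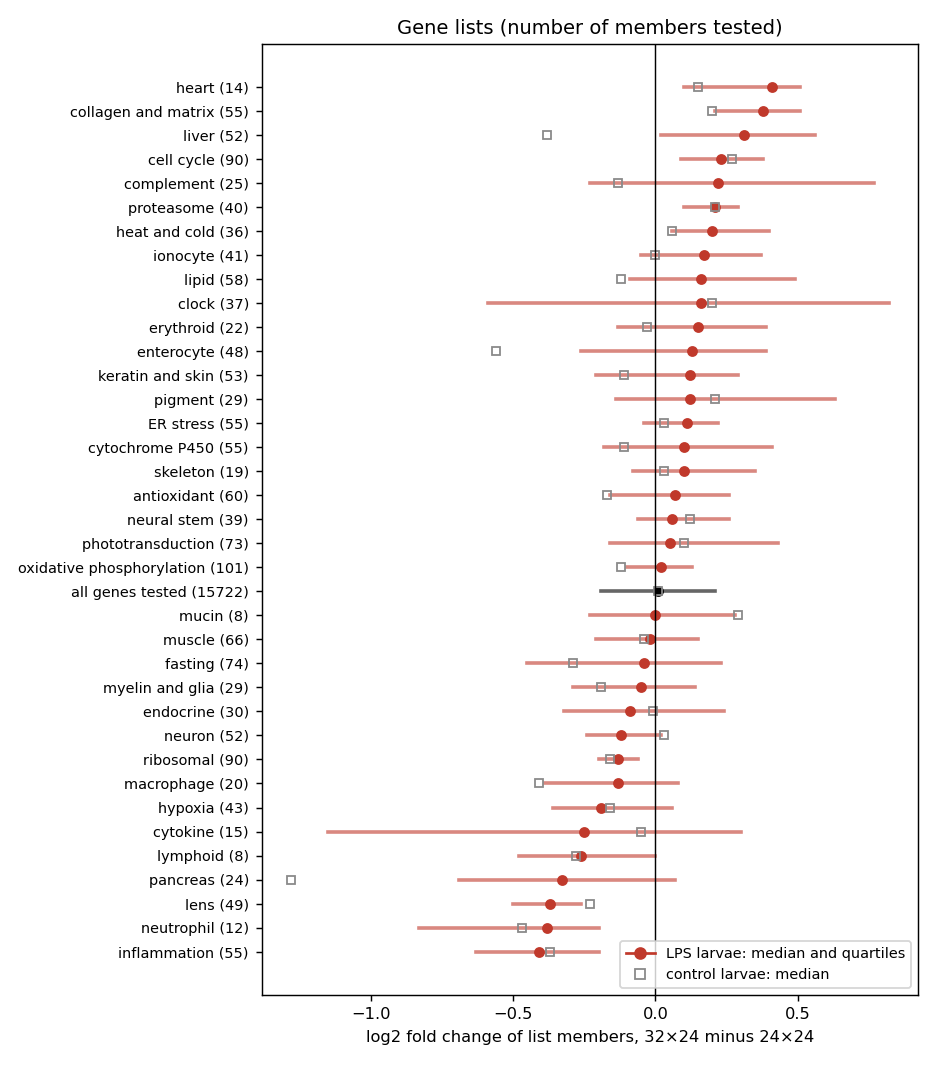
Log2 fold change of the members of each list between the 32 × 24 °C and 24 × 24 °C LPS larvae (red, median and quartiles) and its median between the 32 × 24 °C and 24 × 24 °C control larvae (open squares), by list with the number of members tested. All 15722 genes (black) have a median of 0.01, the collagen list lies at 0.38 and the inflammation list at -0.41, and the liver, enterocyte and pancreas medians in the control larvae are -0.38, -0.56 and -1.28, beside 0.31, 0.13 and -0.33 in the LPS larvae.

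The control larvae carry the same incubation contrast in 6 other libraries. The study split the larvae of each temperature group into LPS and control larvae. Both comparisons therefore drew on the same incubations, and their shared calls are not an independent repeat. There, 77 genes were DEGs (33 up-/44 down-regulated, 0.49% of genes tested). Of these, 19 were also DEGs in the LPS larvae, all in the same direction (13 up, 6 down), which is 47.5% of the 40 and 24.7% of the 77. The shared count dropped to 0 when 24 × 24 °C LPS replicate 2 was left out, to 1 for replicate 3 of either LPS group, and to 10 for 32 × 24 °C LPS replicate 2 as for 24 × 24 °C LPS replicate 1. It was 11 without 32 × 24 °C control replicate 2 and 11, 6 and 7 without 24 × 24 °C control replicates 1, 2 and 3. Of the 40 DEGs of the LPS larvae, 39 had the same sign in the controls, whereas 66.1% of all genes tested had the same sign. At an unadjusted control p under 0.05, 33 of the 40 had the same sign. Of all 15722 genes tested, 941 were higher and 1052 lower in the controls at that p. Over all genes tested, which are not independent replicates, the log2 fold changes of both comparisons correlated at a Pearson coefficient of 0.436 and a Spearman coefficient of 0.419.

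The shared calls included 6 of the 10 called clock genes. In the control larvae, nr1d1 had 89.4, 150 and 130 CPM in the 32 × 24 °C larvae, against 34.1, 16.7 and 27.2 CPM in the 24 × 24 °C larvae (log2 fold change 2.25, standard error 0.37, edgeR adjusted p = 0.0163). For per1a, the control levels were 24.7, 30.0 and 26.1 CPM against 7.51, 6.26 and 7.52 CPM (log2 fold change 1.92, standard error 0.25, edgeR adjusted p = 0.0025). Neither gene overlapped between the control groups, and ciarta, bhlhe41, rorcb and cry3b were called in both comparisons as well. Among the other shared DEGs, grk7a, impg2b, sv2ba, pmp22b, cavin4b and ubtd1a rose in both, and pde6ha, epd and ggctb fell in both. The inflammation list also had a negative median in the controls (-0.37). There, mmp9 had 4.30, 2.66 and 4.42 CPM in the 32 × 24 °C larvae, against 15.2, 38.3 and 45.1 CPM in the 24 × 24 °C larvae (edgeR adjusted p = 0.054). In the controls, il1b (-1.99), fosl1a (-2.25) and cebpb (-1.46) were also lower without overlap and not called by edgeR, whereas cxcl8a had 0.70 with overlap. The study tested the same control contrast with DESeq2. It listed mmp9, fosl1a, cebpb and junba as lower in the 32 × 24 °C control larvae. Lower values with LPS therefore do not by themselves mean a smaller rise with LPS.

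Whether LPS altered the incubation difference was tested with the interaction term. No gene was called by edgeR, with 404 genes at an unadjusted p under 0.05 (2.57%), and DESeq2 called 0 on all 18 and on the 12 libraries challenged at 24 °C. With 3 pools a group, the absence of calls does not show that LPS left the incubation difference unchanged. Among the 40 DEGs, 8 had an interaction p under 0.05 before adjustment. The 40 were chosen on the LPS difference, which is part of the interaction term, so that choice raises this share. For ankrd1b, with an interaction p of 0.000645 before and 1 after adjustment, the log2 fold change was 1.03 in the LPS larvae and -0.01 in the control larvae. The control levels overlapped, at 113, 118 and 175 CPM in the 32 × 24 °C larvae and 131, 118 and 160 CPM in the 24 × 24 °C larvae. For rhogd, it was 1.45 in the LPS larvae and 0.12 in the controls. The same values were -1.15 with LPS and -0.24 in controls for them6, -0.82 with LPS and -0.20 in controls for tsc22d3, and 0.67 with LPS and 0.20 in controls for tefa. The remaining 3 were slc43a1b, opn6b and si:ch211-114n24.6. None of these 8 differences passed the adjusted threshold.

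**Figure D5:**
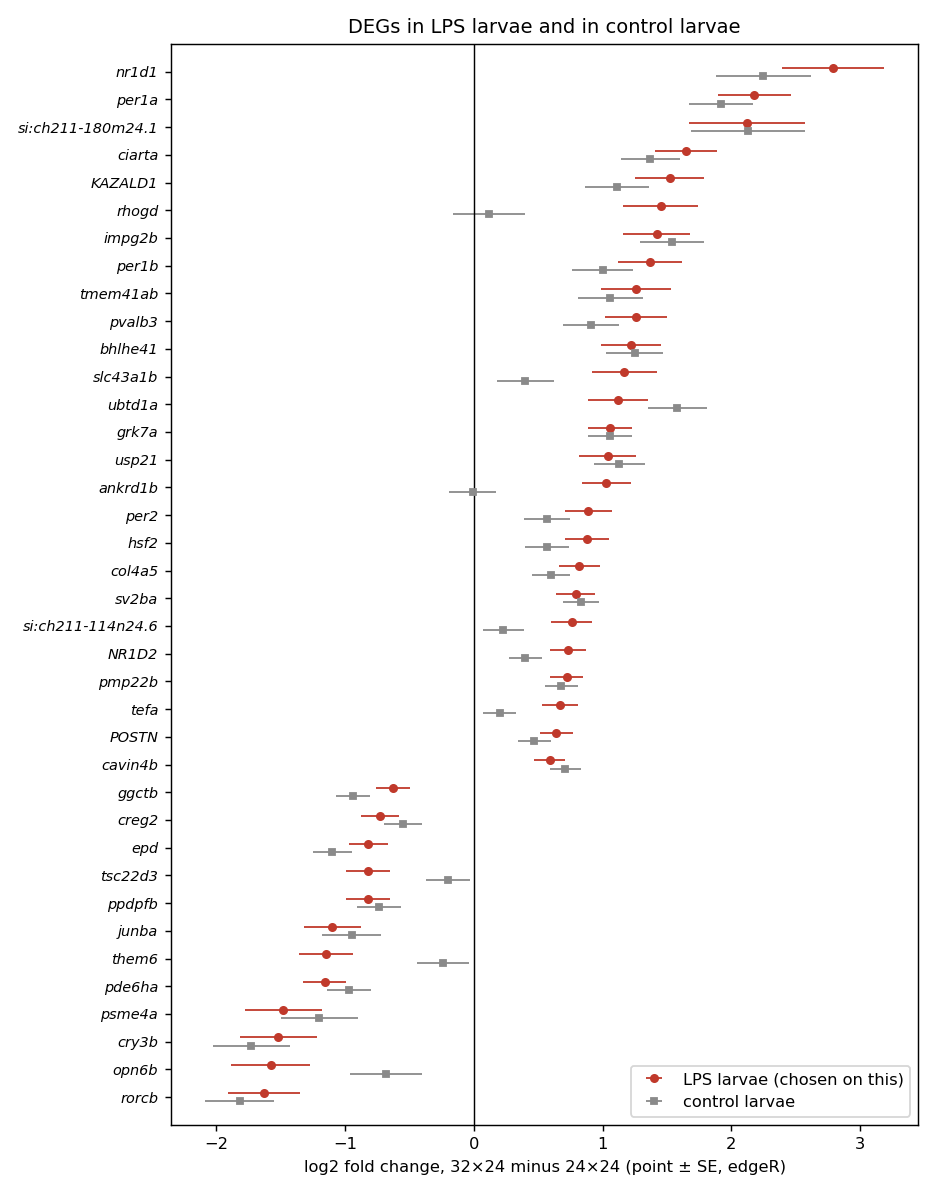
Log2 fold change (point ± standard error, edgeR) of 38 of the 40 DEGs between the 32 × 24 °C and 24 × 24 °C larvae, with LPS (red circles, on which the genes were chosen) and in control larvae (grey squares). All but ankrd1b, at -0.01 in the controls, lie on the same side of 0 in both, and rhogd, them6, tsc22d3 and tefa lie nearer 0 in the controls.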

How the data were processed

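RNA-seq libraries of pooled whole larvae were sequenced paired-end. Per the labels and the submitters' processing notes, the authors removed adapters with cutadapt 1.12, mapped with TopHat2 2.1.0 (build GRCz10) and counted with HTSeq 0.6.1p1, and what they deposited are raw read counts for each Ensembl gene, not normalized. The kit does not mark strand and no source used here states the strand setting, so overlapping or antisense genes, and close paralogs, may share reads. The 31624 genes hold 64840786 counts, with 1868228 to 8261920 per library.

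The test was edgeR 4.0.16 in R 4.3.3: filterByExpr with minimum count 10 and minimum total 15 over the 6 groups, TMM scaling (also of the CPM shown), and the robust quasi-likelihood fit of 6 group means on all 18 libraries. DESeq2 1.42.0 on the same counts was an alternative. The edgeR step was tested on simulated data. The study repeated its experiment with broodstock drawn at random. Nothing in the labels says that the numbered libraries of a group came from separate broods. The p-values therefore measure only the spread between these samples.

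Of the gene names, 1241 came from tables supplementing the study and 24974 from a gene table, and 5409 genes had none. The 37 gene lists and the genes in them were chosen with earlier results of these data known. The rule for named genes took, per direction, the 12 largest named DEGs averaging 1 CPM or more, up to 4 DEGs or the 2 lowest p-values of each list, up to 8 DEGs shared with the controls, any gene called for the interaction, and genes the study names for LPS; not all are printed. Named outside it, after their values were seen, were 10 DEGs (usp21, ankrd1b, per2, col4a5, NR1D2, tefa, cavin4b, ggctb, creg2, si:ch211-114n24.6), the other clock genes not called and col1a2. The alternatives were scaling by DESeq2 size factors, testing without the low-count filter or the fold change threshold, DESeq2, fits restricted to the libraries compared, a replicate block, counts thinned to the depth of the smallest library (random seed 20), and leaving out each library. Of the 40 DEGs, 2 are counted but not reported here by name.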

Additional observations from a re-analysis of the deposited data

How the results depend on the processing

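The counts of DEGs moved with the fit more than the fold changes did. Against 40 DEGs, with 19 shared with the control comparison, DESeq2 on all 18 libraries gave 114 DEGs with 44 shared, edgeR on the libraries of one comparison gave 5 with 3 shared, and DESeq2 on those libraries gave 79 with 38 shared. Thinning to the smallest library gave 31 DEGs with 12 shared, and leaving out both 32 × 24 °C libraries numbered 1, chosen after seeing the data, gave 157 with 47 shared. With 1 of the 18 libraries left out in turn, the DEGs ranged from 0 to 81 and the shared DEGs from 0 to 23, the highest DEG count being without 32 × 24 °C control replicate 1. The cause was not tested. DESeq2 size factors (41), no low-count filter (42) and no fold change threshold (42) stayed within 1.5 times the 40 DEGs. The interaction gave 0 calls under each of these settings and each library left out. No called gene that is named turned its direction under these settings, which groups without overlap made nearly certain beforehand.

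Same-numbered libraries of the 2 LPS groups did not all deviate together (correlations 0.149, 0.187 and -0.0708). Libraries of unlike number had correlations of -0.221 to 0.11, so the 2 highest values were of same-numbered libraries. Whether the numbers mark shared broods is not stated, and the main fit did not take them as pairs. With the replicate number as a block there were 48 DEGs on all 18 libraries (23 shared with the controls, and 34 among the 40) and 52 on the libraries of the comparison (27 shared with the controls, and 18 among the 40). That last fit also called the gene il1b (edgeR adjusted p = 0.0166), the gene mmp9 (0.00378), the gene cebpb (0.0124) and the gene fosl1a (0.0457).

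Depth limits genes of few counts, since all LPS libraries of this comparison but 24 × 24 °C LPS replicates 1 and 2 hold between 2088918 and 2471792 counts.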

Other observations

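Some gene groups outside the DEGs showed wide gaps that edgeR did not call. These genes were chosen after their values were seen. The muscle atrophy ubiquitin ligase gene fbxo32 had 6.01, 14.8 and 5.95 CPM in the 32 × 24 °C LPS larvae, against 33.9, 29.5 and 52.4 CPM in the 24 × 24 °C LPS larvae (log2 fold change -2.03, standard error 0.66, edgeR adjusted p = 0.324), and the leptin gene lepb had 0, 1.85 and 0 CPM against 3.67, 10.1 and 7.70 CPM (edgeR adjusted p = 0.345). The melanin synthesis gene dct had 43.0, 48.5 and 74.0 CPM, against 28.0, 28.3 and 26.7 CPM (log2 fold change 0.99, standard error 0.30, edgeR adjusted p = 0.238). In the control larvae, dct had 67.7, 65.4 and 62.7 CPM in the 32 × 24 °C larvae, against 32.7, 27.7 and 19.4 CPM in the 24 × 24 °C larvae (edgeR adjusted p = 0.052).

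The carbonic anhydrase gene ca4c, of the ionocyte list, had the lowest interaction p among genes with a mean of at least 1 CPM (0.000356, and 1 after adjustment, in edgeR). It had 7.30, 11.9 and 8.93 CPM in the 32 × 24 °C LPS larvae against 3.96, 4.79 and 5.14 CPM in the 24 × 24 °C LPS larvae, and 2.01, 7.98 and 6.84 CPM in the 32 × 24 °C control larvae against 15, 11.3 and 9.05 CPM in the 24 × 24 °C control larvae. Neither comparison was called for ca4c (edgeR adjusted p = 0.33 with LPS and 0.159 in controls).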
